A study of Canis lupus familiaris with 6 samples.

Results

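A set of 3 cytosolic heat shock proteins could be followed in these arrays, namely HSP70 (Gene ID 403612, synonym HSPA1), HSPA4 (Gene ID 474680, synonym APG-2) and HSPB1 (Gene ID 403979, synonym HSP27). They were taken from a list of names, as every non-control probe whose transcript accession belongs to one of them, which gave 4 probes for HSP70, 2 for HSPA4 and 1 for HSPB1. These are 3 of the 1437 genes that could be named on the arrays, and 7 of 43603 probes. All 7 probes lay well above background on all 6 arrays and none was saturated.

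HSP70 is an ATP-driven chaperone that binds unfolded stretches of protein and releases them to fold. J domain proteins bring it clients and trigger ATP hydrolysis, and HSPA4, an HSP110-type relative, acts as a nucleotide exchange factor that resets it. HSPB1 is a small heat shock protein that works without ATP: it forms oligomers that hold unfolding proteins, and it binds and protects actin filaments. In many cells the inducible HSP70 and HSPB1 are switched on by the heat shock factor HSF1 when proteins unfold.

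The cells were MDCK-II, a dog kidney tubule epithelial line, carrying a short hairpin RNA against scribble, a polarity scaffold protein, that tetracycline switches on. All arrays come from this hairpin line. Cells received 5 µg/ml tetracycline 6 h after plating, or none, and total RNA was taken 30, 45 or 60 h later, with 1 array per arm and time and the RNA of 3 wells mixed on each. The arm without tetracycline differs from the other in both the drug and the hairpin, so effects of the drug itself and of scribble loss cannot be told apart. No condition was repeated on a second array, so each p-value here reflects how far a difference varied between times or arms, and says nothing of variation between cultures. The question put to the data is whether these chaperone transcripts differ when the hairpin is switched on, and whether that difference moves with time.

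Between 64.3% and 68.8% of spots on an array were well above background. The arrays lie on 2 slides: both 30 h arrays on slide 1, both 60 h arrays on slide 2, and the 45 h pair on both. Repeated spots of the same probe on an array had an SD of 0.114 on the log2 scale, which puts the SD of a difference between 2 single spots at 0.161. That figure is spot noise over 50 repeated probes and leaves out the variation between cultures. Of the 18 kidney epithelial markers listed, 7 have a named probe and all 7, CDH1 and KRT19 among them, were well above background on every array. Of 10 fibroblast markers 6 have one, 4 were above background on every array and DCN on none. Of 9 white blood cell markers CD4 and CD8A have one, and of 6 endothelial markers KDR and VWF, and these were above background throughout. A marker was counted as above background where at least 1 of its probes was. AQP2, COL1A1, COL1A2 and THY1 also have probes above background on 0 arrays, and CD8A has one above on 1 array. The scaled signals of the brightest probe of each marker were summed within an array on the linear scale, so the brightest markers weigh most. The log2 of this sum for the epithelial markers was 6.997 to 7.03 without and 6.72 to 6.86 with tetracycline, which do not overlap. Of all features, 10.2% had arms that parted downward in this way. The log2 sums of the fibroblast markers (1.71 to 1.91 without, 1.86 to 1.91 with), the white blood cell markers (-3.41 to -3.19 without, -3.40 to -3.18 with) and the endothelial markers (4.53 to 4.59 without, 4.46 to 4.62 with) overlap. The part of the epithelial shift in the results below was not tested.

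HSPA4 was higher with tetracycline at each time, most at 60 h, whereas HSPB1 and HSP70 were lower at each time, least at 60 h. The mean differences, with minus without tetracycline on the log2 scale, were 0.41 ± 0.12 for HSPA4, -0.29 ± 0.07 for HSPB1 and -0.27 ± 0.08 for HSP70. Here and below, the SE of a mean difference, slope or time difference is the moderated one of the limma fit. It draws the spread of each gene toward that of all features. The plain SD of the 3 differences was 0.26 for HSPA4, 0.08 for HSPB1 and 0.14 for HSP70. None of the 3 passed an adjusted p of 0.05 in the fit over all features (limma, Benjamini-Hochberg). These are bulk values scaled to each array, in which fewer cells making a transcript and less of it per cell cannot be told apart.

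**Figure D1:**
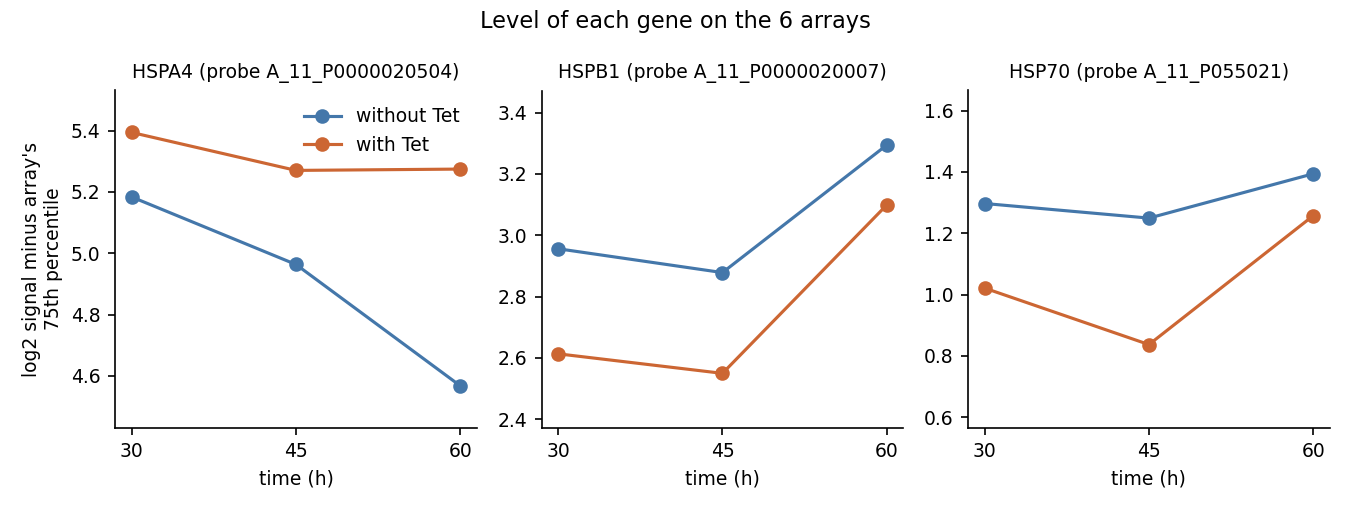
Log2 level relative to the 75th percentile of each array (vertical axis) against time (horizontal axis, h) for the brightest probe of HSPA4, HSPB1 and HSP70. Each point is 1 array, blue without and orange with tetracycline, and the panels span equal log2 ranges around their own centres. The HSPA4 lines part with time, from 0.21 at 30 h to 0.71 at 60 h, and in the HSPB1 and HSP70 panels the line with tetracycline runs below the other at every time.

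HSPA4, the nucleotide exchange factor, gave a processed intensity of 23217 at 30 h, 19212 at 45 h and 13986 at 60 h without tetracycline. With tetracycline it gave 26699, 23883 and 22505. Set against the 75th percentile of each array, the log2 levels were 5.18, 4.96 and 4.57 without tetracycline (mean 4.90 ± 0.31, SD over 3 times). With tetracycline they were 5.39, 5.27 and 5.27 (5.31 ± 0.07).

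The lowest HSPA4 level with tetracycline thus lay 0.09 above the highest without it, and the arms did not overlap. The level without tetracycline was lower at each later time, while that with tetracycline differed by 0.12 between 30 and 60 h. With tetracycline HSPA4 was 1.16-fold higher at 30 h, 1.24-fold higher at 45 h and 1.63-fold higher at 60 h. The mean difference of 0.41 had a 95% interval of 0.08 to 0.73 and an adjusted p of 0.170 (limma). Without the 60 h pair of arrays it was 0.26 (adjusted p = 0.2999), over 1.5 times smaller.

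The second HSPA4 probe gave nearly the same picture. Its differences were 0.23, 0.35 and 0.72, within 0.05 of those of the brighter probe at each time, and its mean was 0.44 ± 0.12. Over the 6 arrays the 2 probes correlated at 0.999, as a description of probes that share the same RNA. The gap of 0.71 at 60 h is above the SD of 0.161 for a difference of 2 spots, and the 0.21 at 30 h is little above it, though both probes showed it.

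HSPB1, the small heat shock protein, had a processed intensity of 4957, 4528 and 5786 at 30, 45 and 60 h without tetracycline and of 3885, 3623 and 4982 with it. The log2 levels were 2.96, 2.88 and 3.29 without tetracycline (3.04 ± 0.22, SD over 3 times) and 2.61, 2.55 and 3.099 with it (2.75 ± 0.30). The arms overlap, because the 60 h array with tetracycline lies above the 30 h and 45 h arrays without it.

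Within each time HSPB1 was lower with tetracycline, and the fold was 1.27 at 30 h, 1.26 at 45 h and 1.15 at 60 h. The differences of -0.34, -0.33 and -0.20 had an SD of 0.08, the smallest spread among the 3 genes. Their mean of -0.29 had a 95% interval of -0.48 to -0.10 and an adjusted p of 0.146 (limma). HSPB1 rests on a single probe, so no second measurement on the array bears on it.

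HSP70, the ATP-driven chaperone, was read by 4 probes of very different brightness. On the brightest the intensities were 1570, 1464 and 1550 without tetracycline and 1289, 1105 and 1390 with it. The log2 levels were 1.30, 1.25 and 1.39 without tetracycline (1.31 ± 0.07, SD over 3 times) and 1.02, 0.84 and 1.26 with it (1.04 ± 0.21). The arms overlap only at the edge, where the 60 h array with tetracycline (1.26) lies just above the 45 h array without it (1.25).

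The level without tetracycline was nearly flat, and with tetracycline it was lowest at 45 h. With tetracycline HSP70 was lower by a fold of 1.21 at 30 h, of 1.33 at 45 h and of 1.099 at 60 h. The differences of -0.28, -0.41 and -0.14 averaged -0.27, with a 95% interval of -0.50 to -0.05 and an adjusted p of 0.1745 (limma). At 60 h the difference was smaller than the SD of 0.161 for 2 spots.

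The other HSP70 probes split in how far they followed. The second, A_11_P055186, gave -0.34, -0.44 and -0.05 (mean -0.28 ± 0.10), and the third, A_11_P055026, gave -0.30, -0.30 and -0.08 (mean -0.23 ± 0.08). Both correlated with the brightest probe over the 6 arrays, at 0.987 and 0.981. The dimmest, A_11_P209683, with intensities of 80.15 to 122.6, gave -0.13, -0.51 and 0.23, so that at 60 h it stood on the other side of 0. Its mean was -0.14 ± 0.16 and it correlated with the others at 0.823 to 0.860. On all 4 probes the 45 h difference was below the 60 h one. These probes read the same RNA. At 45 h the array without tetracycline lies on slide 1 and the other on slide 2, so arm and slide cannot be told apart there. Without the 45 h pair the mean on the brightest probe was -0.21. Whether these probes also bind transcripts of other HSP70-class genes was not tested.

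**Figure D2:**
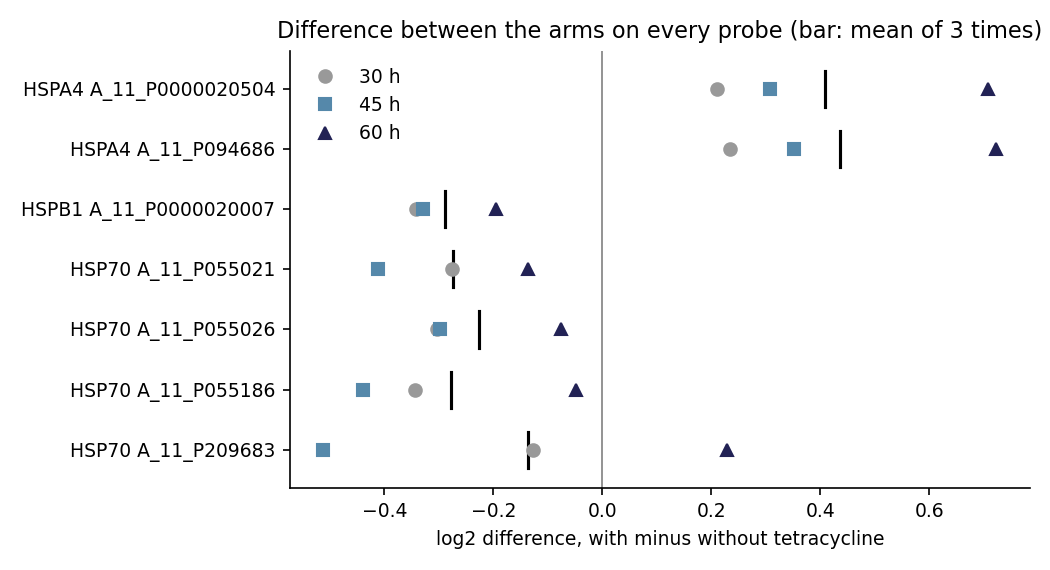
Log2 difference, with minus without tetracycline (horizontal axis), for each of the 7 probes (vertical axis) at 30 h (circles), 45 h (squares) and 60 h (triangles). The bar is the mean of the 3 times. Both HSPA4 probes lie right of 0 at all times, HSPB1 and 3 HSP70 probes lie left of it, and the dimmest HSP70 probe crosses from -0.51 to 0.23.

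These genes have to be read against the arrays as a whole, where many features differed between the arms. With limma 0 of 27581 features (0%) passed an adjusted p of 0.05, and 6432 (23.3%) had an unadjusted p under 0.05, as did HSPA4, HSPB1 and HSP70. These 3 genes were chosen with earlier results of these data known, so their place beside these shares is given as a description. Slide as a further term is here the same as leaving out the 45 h pair. With it none of the 3 genes stayed under an unadjusted p of 0.05, and without the 30 h pair only HSPA4 did. HSPB1 and HSP70 also left it with time left out of the model. HSP70 left it as well with its probes averaged, with no detection filter and on its dimmest probe. By direction, 12.4% of features had an unadjusted p under 0.05 and were higher with tetracycline, like HSPA4, and 11% were lower, like HSPB1 and HSP70. A difference on the same side at all 3 times was seen in 28% of features upward and 21.5% downward. Arms without overlap, as for HSPA4, were found in 11.9% of features upward and 10.2% downward. A mean difference at least as large in size as that of HSPA4 was found in 12.4% of features, as that of HSPB1 in 22.1% and as that of HSP70 in 23.7%. The median difference over all features was 0.01.

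**Figure D3:**
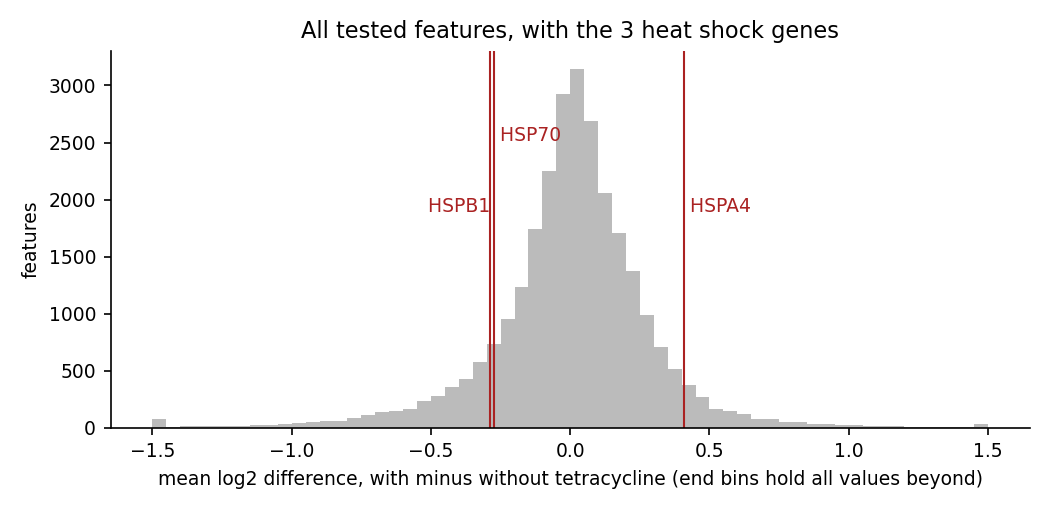
Number of features (vertical axis) by mean log2 difference, with minus without tetracycline (horizontal axis, end bins holding all values beyond), for all 27581 tested features. The lines mark HSPB1 at -0.29, HSP70 at -0.27 and HSPA4 at 0.41, which lie on the shoulders of the distribution and not in its far tails.

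Since probes bind unequally, the levels of the 3 genes cannot be set against each other, but the shift of their ratio between the arms can. The log2 ratio of HSPA4 to HSPB1 was higher with tetracycline by 0.55, 0.64 and 0.90 at 30, 45 and 60 h. That of HSPA4 to HSP70 was higher by 0.49, 0.72 and 0.84. The ratio of HSPB1 to HSP70 shifted by -0.07, 0.08 and -0.06, on both sides of 0. Over the 6 arrays HSPB1 and HSP70 correlated at 0.922, and HSPA4 with them at -0.727 and -0.659, given as a description of 6 arrays that share time and arm.

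The slope of the difference between the arms was 0.25 ± 0.08 per 15 h (SE) for HSPA4, 0.07 ± 0.07 for HSPB1 and 0.07 ± 0.09 for HSP70. No slope passed the adjusted threshold (limma): 0 of 27581 features (0%) did, and 19% had an unadjusted p under 0.05, among them HSPA4 with an adjusted p of 0.2486. The adjusted p was 0.622 for HSPB1 and 0.723 for HSP70. A slope at least as steep in either direction as that of HSPA4 was found in 18.2% of features. This fit keeps 1 residual degree of freedom.

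The 3 genes also differed in how their levels stood over time in culture. From 30 h to 60 h the HSPB1 level was higher by 0.34 without and 0.49 with tetracycline, a mean of 0.41 ± 0.09 (SE; adjusted p = 0.0628, limma). HSP70 was higher by 0.10 without and 0.24 with tetracycline (mean 0.17 ± 0.10, adjusted p = 0.335). HSPA4 was lower by 1.53-fold without and 1.09-fold with tetracycline (mean -0.37 ± 0.15, adjusted p = 0.181). None passed the threshold that 8.15% of features passed. At an unadjusted p under 0.05, where 31.4% of features stood, HSPB1 was the 1 of these genes by the brightest probe. The second HSPA4 probe also stood there (-0.39, unadjusted p = 0.0488, limma).

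The 60 h arrays lie on another slide than the 30 h ones, so that slide and time are joined here except through the 45 h pair. With slide as a further term the time differences became 0.47 ± 0.25 for HSPB1, 0.37 ± 0.25 for HSP70 and -0.22 ± 0.35 for HSPA4. Without the 60 h array that lacked tetracycline, HSPA4 stood at -0.14, and without the one that had it, at -0.59, while HSP70 stood at 0.27 and 0.06. The comparison of the arms is made within a slide at 30 h and at 60 h, and the differences at these times are those given above.

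Other genes of the chaperone network were taken from 11 lists of 146 genes, of which 19, the 3 heat shock genes included, have a named probe and were tested. Of the 16 others, 11 were higher with tetracycline at all 3 times and 1 lower, where 28% and 21.5% of all features were. In 8 of the 16 all arrays with tetracycline lay above all without (11.9% of all features), and in 1 below. An unadjusted p under 0.05 was reached by 3 of the 16, all higher, a share near that of all features (23.3%, or 12.4% higher), and an adjusted p of 0.05 by 0 (limma). The median mean difference of the 16 was 0.14. The lists were chosen with earlier results of these data known, so these counts are a description. The counts of 11 and 1 ranged from 10 to 12 and from 1 to 2 under the other scalings, filters and probe rules.

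Among the partners of HSP70, the J domain protein DNAJA1 had differences of 0.19, 0.12 and 0.39 at 30, 45 and 60 h (mean 0.23 ± 0.08), and its second probe gave 0.11, 0.23 and 0.33. ST13, the co-chaperone that stabilises HSP70 in its client-bound state, stood at 0.08, 0.22 and 0.11. For both, as for HSPA4, the arms did not overlap, which held upward for 11.9% of all features. The mean difference of ST13 was 0.14 ± 0.07 (unadjusted p = 0.119, limma). Its differences at 30 h and 60 h were below the SD of 0.161 for 2 spots. HSP70 itself, by its brightest probe, was on the other side at each of these times.

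Of the small heat shock proteins besides HSPB1, HSPB8, a partner of BAG3 in clearing misfolded proteins, stood at 0.02, 0.09 and -0.02, with its second probe at -0.05, -0.11 and -0.05. The lens crystallin CRYAA, very dim here, stood at -0.43, 0.57 and -0.02. The kinase gene MAPK14, whose product p38 alpha lies upstream of HSPB1 phosphorylation, stood at 0.18, 0.08 and 0.19. HSF4, a heat shock factor best known from the lens, stood at -0.03, -0.13 and 0.10.

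The proteasome genes lay mostly on the HSPA4 side. PSMC1, an ATPase of the regulatory particle, had differences of 0.30, 0.42 and 0.62 (mean 0.45 ± 0.09, adjusted p = 0.1275, limma), with a second probe at 0.35, 0.45 and 0.61. The core subunit PSMB3 stood at 0.08, 0.22 and 0.42 and the ubiquitin receptor PSMD4 at 0.19, 0.09 and 0.17. Of the 32 genes in that list only 5 were tested, and 4 of them were higher at all 3 times, as were 28% of all features.

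HTRA2, a protease of the mitochondrial intermembrane space, stood at 0.36, 0.32 and 0.29 (mean 0.32 ± 0.07, adjusted p = 0.1285, limma), and PFDN6, a prefoldin subunit that passes actin and tubulin to the chaperonin, at 0.06, 0.11 and 0.12. In the endoplasmic reticulum the mean difference was 0.24 for HSP90B1 and 0.15 for CANX, and SERPINH1, the collagen chaperone, stood at -0.06, -0.21 and -0.28 with all 3 of its probes lower at each time. From 30 h to 60 h CANX fell by 0.53 (adjusted p = 0.0415, limma), the 1 gene of these lists to pass for time. No feature passed with slide as a further term, with no detection filter, or without any of the 30 h or 60 h arrays in turn, so this call was lost in each of these fits. None of the 13 HSP90 system genes listed has a named probe, so they were not analysed here.

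**Figure D4:**
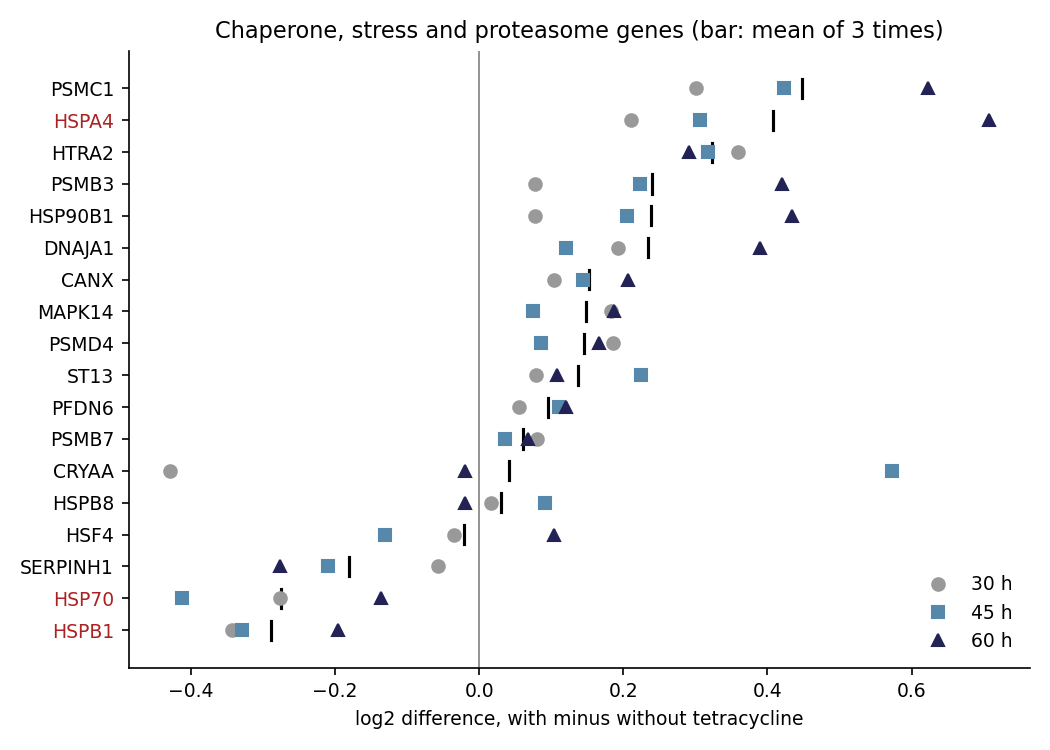
Log2 difference, with minus without tetracycline (horizontal axis), for 18 of the 19 tested genes of the chaperone, stress and proteasome lists (vertical axis, ordered by mean) at 30 h (circles), 45 h (squares) and 60 h (triangles). The bar is the mean of the 3 times, and the 3 heat shock genes are in red. HSPA4 lies near the top beside PSMC1, and HSP70 and HSPB1 are the lowest means.

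By Pearson correlation over the 6 arrays among 972 other named genes above background on all arrays, the genes most like HSPA4 were DIABLO (0.993), SSR1 (0.991) and ICAM1 (0.984). Their differences at 30, 45 and 60 h were 0.14, 0.17 and 0.35 for DIABLO, a mitochondrial antagonist of apoptosis inhibitors. SSR1, a translocon-associated subunit, stood at 0.25, 0.31 and 0.55, and the adhesion molecule ICAM1 at 0.15, 0.52 and 1.08. A correlation above 0.95 with HSPA4 was found for 28 genes. The genes named here and in the next paragraph were picked for likeness over these same 6 arrays. That their differences resemble those of the member follows from this choice and is given as a description.

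Fewer genes exceeded 0.95 with HSPB1 and HSP70, each taken by its brightest probe. How many do so for a typical gene on these arrays was not computed. HSPB1 was most like the fucosyltransferase gene FUT8 (0.972), the metallothionein MT2A (0.958) and the class I histocompatibility gene DLA-64 (0.955), and 3 genes exceeded 0.95. HSP70 was most like the galectin LGALS3 (0.985), FUT8 (0.942) and the initiation factor EIF2D (0.940), and 1 gene exceeded 0.95. FUT8 stood at -0.23, -0.15 and -0.13 and MT2A at -0.13, -0.28 and -0.24. LGALS3 stood at -0.10, -0.24 and -0.08.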

How the data were processed

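Each array's deposited file gives the brightness of its spots, an intensity on a linear scale; Agilent Feature Extraction 11.5.1.1 wrote it, per the submitters' processing notes and the file headers. Background subtraction and spatial detrending within an array had been applied, with no scaling between arrays. The value table deposited with the series is this intensity times a nearly constant factor per array (medians 2.297 to 2.617, column medians 150.9 to 171.5). The sources used here do not say how it was set. On the 30 h array without tetracycline its 5th and 95th percentiles were 2.288 and 2.306, so it nearly cancels on scaling.

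Outlier-flagged spots were dropped, spots of a probe averaged (19 of 43603 probes lost), and log2 values taken minus each array's 75th percentile. Probes were named by unversioned RefSeq accession in a RefSeq table for UU_Cfam_GSD_1.0, another build than the CanFam3.1 of the arrays, so it served for symbols alone; 2326 probes got 1 gene symbol, 27 a locus number and 41250 none. Other heat shock genes may lie among the unnamed probes. Features well above background on all 3 arrays of an arm were tested, 1 probe (the brightest) per gene, with two-sided moderated fits (limma 3.58.1, R 4.3.3) adjusted by Benjamini-Hochberg over 27581 features: arm with time as block (2 residual degrees of freedom), arm by linear time, and 60 h against 30 h. The fits were tested on simulated data. The number of arrays limits the precision.

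The text names the 3 members, up to 3 tested genes per list by size of mean difference, and the 3 genes most correlated with each member. One gene of the lists enters the counts and is not reported here by name. Members and lists were chosen with earlier results of these data known. Alternatives were other scalings, the series matrix, normexp, filters, probe rules, prior and left-out arrays. The planned mean spot signal for normexp was replaced by the median one (offset 50), since that is the column the files hold. The slide term for the arms and the other probes of each member were added after seeing the data.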

Additional observations from a re-analysis of the deposited data

Results flagged for a closer look

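The dimmest HSP70 probe, A_11_P209683, had differences on opposite sides of 0 at 2 times, each larger than the 0.161 of spot noise: -0.51 at 45 h and 0.23 at 60 h. The lens crystallin gene CRYAA did the same, with -0.43 at 30 h and 0.57 at 45 h, at log2 levels of -4.86 to -4.22 against the array's 75th percentile. Its other probe was above background on 0 arrays. That spot noise comes from other, repeated probes and leaves out the variation between cultures, and both of these probes are dim, so it is a mark for a closer look and not a test. With 1 array per arm and time, the difference between times was not tested for either probe. The 45 h arrays lie on 2 slides, 1 per arm, unlike the 30 h pair and the 60 h pair. The part of slide in these values was not tested.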

How the results depend on the processing

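All mean differences, slopes and time differences of HSPA4, HSPB1 and HSP70 kept their direction under every alternative run. Several of these runs could not have turned them. The detection filters, the prior and the fit of each probe as its own feature leave the estimates unchanged. For the arms, so does leaving time out of the model. As the 3 differences of each gene share a side, leaving out a pair could not turn their mean. For the arms the mean ranged from 0.26 to 0.51 for HSPA4 (adjusted p 0.0994 to 0.601), from -0.34 to -0.26 for HSPB1 (0.0843 to 0.601) and from -0.34 to -0.14 for HSP70 (0.127 to 0.643). Leaving out 1 pair gave 0.26 to 0.51, -0.34 to -0.26 and -0.34 to -0.21. Leaving out 1 of the 30 h or 60 h arrays gave time differences of -0.59 to -0.14 for HSPA4, 0.34 to 0.48 for HSPB1 and 0.06 to 0.27 for HSP70. HSPB1 passed for time with quantile scaling (0.47, adjusted p = 0.0470), normexp (0.40, 0.0266) and a robust, trended prior (0.41, 0.0351).

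Counts of features moved more. Past an adjusted p of 0.05 for the arms were 17 when time was left out of the model, 16 under the robust, trended prior, 130 with normexp and 0 to 1 without 1 pair, with no member among them. At an unadjusted p under 0.05 were 4225 when time was left out, 2130 to 7241 without 1 pair and 2130 with slide as a term, which takes up the 45 h pair. For the slope 247 passed with median scaling, 1637 with normexp, 1798 with that prior and 2 among features above background on all arrays. For time 2249 passed, against 4112 with normexp, 3771 with that prior, 0 with no detection filter, 0 with slide as a term and 0 without each of the 30 h and 60 h arrays in turn. The cause of these shifts was not tested. Leaving out a pair was not run for the slope, since it leaves no residual degrees of freedom.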
